A study of Mus musculus with 20 samples.

Results

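Scar-associated macrophages are monocyte-derived cells described in fibrotic liver, where they carry the receptor TREM2 and the tetraspanin CD9. The 9 genes considered here are *Trem2*, *Gpnmb*, *Spp1*, *Cd9*, *Cd63*, *Fabp5*, *Lpl*, *Lgals3* and *Lgals1*, markers by which these cells and the closely related lipid-associated macrophages are commonly recognised. They were chosen by gene symbol, each matched 1 row among the 59311 genes of the deposited table, and all 9 were among the 17248 genes that passed the filter on low values. RNA was sequenced from 20 libraries of macrophages sorted from the livers of 10 male C57BL/6J mice, aged 10 to 12 weeks. All 10 mice had liver fibrosis from CCl4 injected 2 times a week for 4 weeks, so no library came from a liver without CCl4. Mice 16 to 20 received Ac-6-FP, a ligand that occupies the antigen-presenting molecule MR1 and keeps mucosal-associated invariant T (MAIT) cells inactive, and mice 11 to 15 received its vehicle (1% DMSO in PBS). The first dose came 2 h before the last CCl4 injection and dosing went on daily during the following 2 days. From each liver, CD11b+ F4/80+ cells negative for Ly6G, CD11c and CD3 were sorted as Ly6C hi or Ly6C lo monocyte-derived macrophages (MoMac), which gave 4 groups of 5 libraries.

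As background, Ly6C hi cells are recently recruited inflammatory monocytes and macrophages, and in recovering liver they give rise to Ly6C lo macrophages, which are linked to matrix degradation. TREM2 is a surface receptor for lipids, lipoproteins and debris of dead cells that signals through the adaptor DAP12. Macrophages that take up large amounts of lipid or debris raise a lysosomal and lipid-handling programme that includes GPNMB, CD63, FABP5 and lipoprotein lipase. Osteopontin (*Spp1*) and galectin-3 (*Lgals3*) are secreted proteins with known profibrotic actions on stellate cells.

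Values are normalized counts, the number of reads of a gene divided by a size factor of the library and not by gene length, so levels are compared between libraries and not between genes. The reads counted on genes ranged from 10298994 to 18682437 in 19 libraries. The Ly6C lo library of mouse 13 stood apart, with 5693049 reads and 5343 genes above 0 (9017 to 15766 in the others). It listed 41.6% of the genes with a median of at least 100 at 0. Member differences between subsets or treatments that rest on this library are given with and without it. Correlations and group means of the number of genes above 0 include it. *Ly6c2*, which encodes a Ly6C antigen, lay between 4930 and 10012 in Ly6C hi and between 284 and 1014 in Ly6C lo libraries, so that the labels of the subsets held in every library. *Csf1r*, the receptor for the macrophage growth factor CSF1, had medians of 6584 in Ly6C hi and 9546 in Ly6C lo libraries, and *Adgre1*, which encodes F4/80, of 2715 and 2661. *Itgax*, which encodes the CD11c used for negative selection, was at 0 in 10 of 10 Ly6C hi libraries, and in Ly6C lo libraries it had a median of 1508, with 1 library at 0.

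The promoters shown are those of the 4 members with a usable window. Of these, *Cd9* and *Spp1* were higher in Ly6C lo MoMac in the comparison that follows, and *Trem2* and *Gpnmb* did not pass its main test. RefSeq promoters (build GRCm38.p6, the build also named mm10) were matched for 6 of 9 members, and *Fabp5*, *Lpl* and *Lgals1* had none in the table used. For *Cd63* and *Lgals3* the RefSeq start lies inside a longer annotated gene, so their windows are not shown. Each sequence below reads 5′ to 3′ on the strand of the gene and ends at the base before the first annotated start. Capitals mark matches on either strand to 6 motifs, which are TGANTCA for the factor AP-1, GAGGAAG for the core of PU.1 sites, CACGTG for the E-box and CATGTG for the M-box of the MiT/TFE factors. The other two are TATAAA, the letters of the core element of that name, and GGGCGG, the GC box of Sp1. The windows are chr6:125494792-125495010 on the minus strand for *Cd9*, and on the plus strand chr5:104434861-104435110 for *Spp1*, chr17:48346151-48346394 for *Trem2* and chr6:49036268-49036517 for *Gpnmb*.
Cd9: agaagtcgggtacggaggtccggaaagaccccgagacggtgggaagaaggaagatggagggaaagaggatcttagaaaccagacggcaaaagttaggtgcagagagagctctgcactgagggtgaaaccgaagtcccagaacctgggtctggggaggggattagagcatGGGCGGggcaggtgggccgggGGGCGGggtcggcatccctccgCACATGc
Spp1: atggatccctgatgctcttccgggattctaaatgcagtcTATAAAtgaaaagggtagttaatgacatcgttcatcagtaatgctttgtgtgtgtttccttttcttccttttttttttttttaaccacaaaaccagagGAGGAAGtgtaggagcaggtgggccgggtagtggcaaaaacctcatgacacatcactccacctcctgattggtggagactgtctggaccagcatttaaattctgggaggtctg
Trem2: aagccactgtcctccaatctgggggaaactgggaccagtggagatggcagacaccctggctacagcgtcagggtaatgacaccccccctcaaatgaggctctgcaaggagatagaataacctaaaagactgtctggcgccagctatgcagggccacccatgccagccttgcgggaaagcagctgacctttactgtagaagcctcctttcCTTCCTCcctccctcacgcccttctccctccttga
Gpnmb: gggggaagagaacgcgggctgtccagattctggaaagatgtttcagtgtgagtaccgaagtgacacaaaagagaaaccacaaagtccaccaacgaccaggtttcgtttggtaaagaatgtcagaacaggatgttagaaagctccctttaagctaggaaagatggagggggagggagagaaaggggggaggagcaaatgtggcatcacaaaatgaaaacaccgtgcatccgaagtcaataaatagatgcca

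The *Cd9* window held 2 matches to GGGCGG, present in 28.3% of all 32851 RefSeq promoters over the same length, and 1 match to CATGTG, present in 11.1%. Its GC content of 61.2% stood above the median of 52.1% over all promoters. The *Spp1* window, with a GC content of 43.6%, held 1 match to GAGGAAG (10.6% of all promoters) and 1 to TATAAA (12.4%), which began 211 bases before the RefSeq start. The *Trem2* window held 1 match to GAGGAAG on the opposite strand (10.3% of all promoters), and the *Gpnmb* window none. None of the 4 windows held TGANTCA or CACGTG, which occur in 6.75% and 6.02% of promoters over 250 bases. Such matches describe the letters only.

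The first comparison asked whether these genes mark Ly6C lo or Ly6C hi MoMac of the same liver. They did not move as a block. *Cd9*, *Cd63* and *Spp1* were higher in Ly6C lo MoMac, *Lgals3* was higher in Ly6C hi MoMac, and the other 5 did not pass the test. This makes 4 of 9 members past the threshold (limma on the within-mouse difference of log2(normalized count + 1), 10 mice, Benjamini-Hochberg adjusted p under 0.05), beside 5.19% of all 17248 genes tested. Of all genes, 3.44% were higher in Ly6C lo and 1.76% higher in Ly6C hi MoMac. The median log2 difference, Ly6C lo minus Ly6C hi, was -0.399 over the 9 members and 0.0343 over all genes. In bulk RNA, more cells that carry a transcript and more transcript per cell cannot be told apart.

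*Cd9* (mm10, chr6:125460266-125494760) encodes a tetraspanin that organises integrins and other receptors in the plasma membrane. In Ly6C hi libraries of vehicle mice 11 to 15 it was at 1266, 619.8, 1203, 1417 and 1250.2 normalized counts, and in those of Ac-6-FP mice 16 to 20 at 717, 722, 1798, 1371 and 1075. In Ly6C lo libraries the values were 16396, 18585, 18203, 23218 and 15304 with vehicle and 15544, 13703, 16783, 18201 and 18679.8 with Ac-6-FP. The lowest Ly6C lo library thus lay above the highest Ly6C hi library by a wide margin, and the ratio within a mouse ranged from 9.33 to 30.0. The log2 difference was 3.99 (standard error 0.148, 95% interval 3.67 to 4.31), a 15.9-fold difference (limma, adjusted p = 1.2e-08). A two-sided exact sign-flip permutation test over the 10 mice gave p = 0.00195, the smallest it can give.

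*Cd63* (chr10:128908919-128912825) encodes the tetraspanin of late endosomes, lysosomes and exosomes. It was at 17.7, 0, 44.1, 154 and 95.9 in Ly6C hi libraries of vehicle mice, and at 33.1, 74.5, 123, 0 and 17.9 in those of Ac-6-FP mice. In Ly6C lo libraries it was at 1937, 2395, 831, 1263 and 1269 with vehicle and at 1341, 601, 2199.5, 703 and 2145 with Ac-6-FP. The subsets did not overlap here either, and the Ly6C hi mean of 56.0 ± 53.5 compared with a Ly6C lo mean of 1468 ± 659 (SD, n = 10 each). The log2 difference was 5.76 (standard error 0.808, limma, adjusted p = 0.00069; exact sign-flip permutation p = 0.00195). Its size depends on the 2 Ly6C hi libraries at 0, and it ranged from 4.89 to 6.45 over the alternatives, under all of which it passed the threshold. *Cd9* and *Cd63* were higher in Ly6C lo MoMac in 10 of 10 mice, a pattern seen in 1.98% of all genes.

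*Spp1* (chr5:104435111-104441053) encodes osteopontin, a secreted ligand of integrins and CD44. In Ly6C lo libraries it was at 5792, 18114, 7432, 3875 and 12688 with vehicle and at 1439.9, 6336, 14232, 4570.1 and 2592 with Ac-6-FP. In Ly6C hi libraries it was at 602, 1980.3, 2736, 480.5 and 37469 with vehicle and at 322, 612, 1006, 674 and 1064 with Ac-6-FP. The Ly6C hi library of mouse 15 held the highest value of all 20 libraries, 13.7 times the next Ly6C hi library, and mouse 15 was the only mouse with less *Spp1* in its Ly6C lo than in its Ly6C hi library. The log2 difference was 2.27 (standard error 0.436, 4.84-fold, limma, adjusted p = 0.0074) and positive in 9 of 10 mice (exact sign-flip permutation p = 0.00781). Without mouse 15 it was 2.70 (limma, adjusted p = 0.00036). The table also lists an unnamed gene over the same stretch of chromosome 5, with values of 0.956 to 1.17 times those of *Spp1* in each library, so the reads of both rows cannot be told apart.

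**Figure D1:**
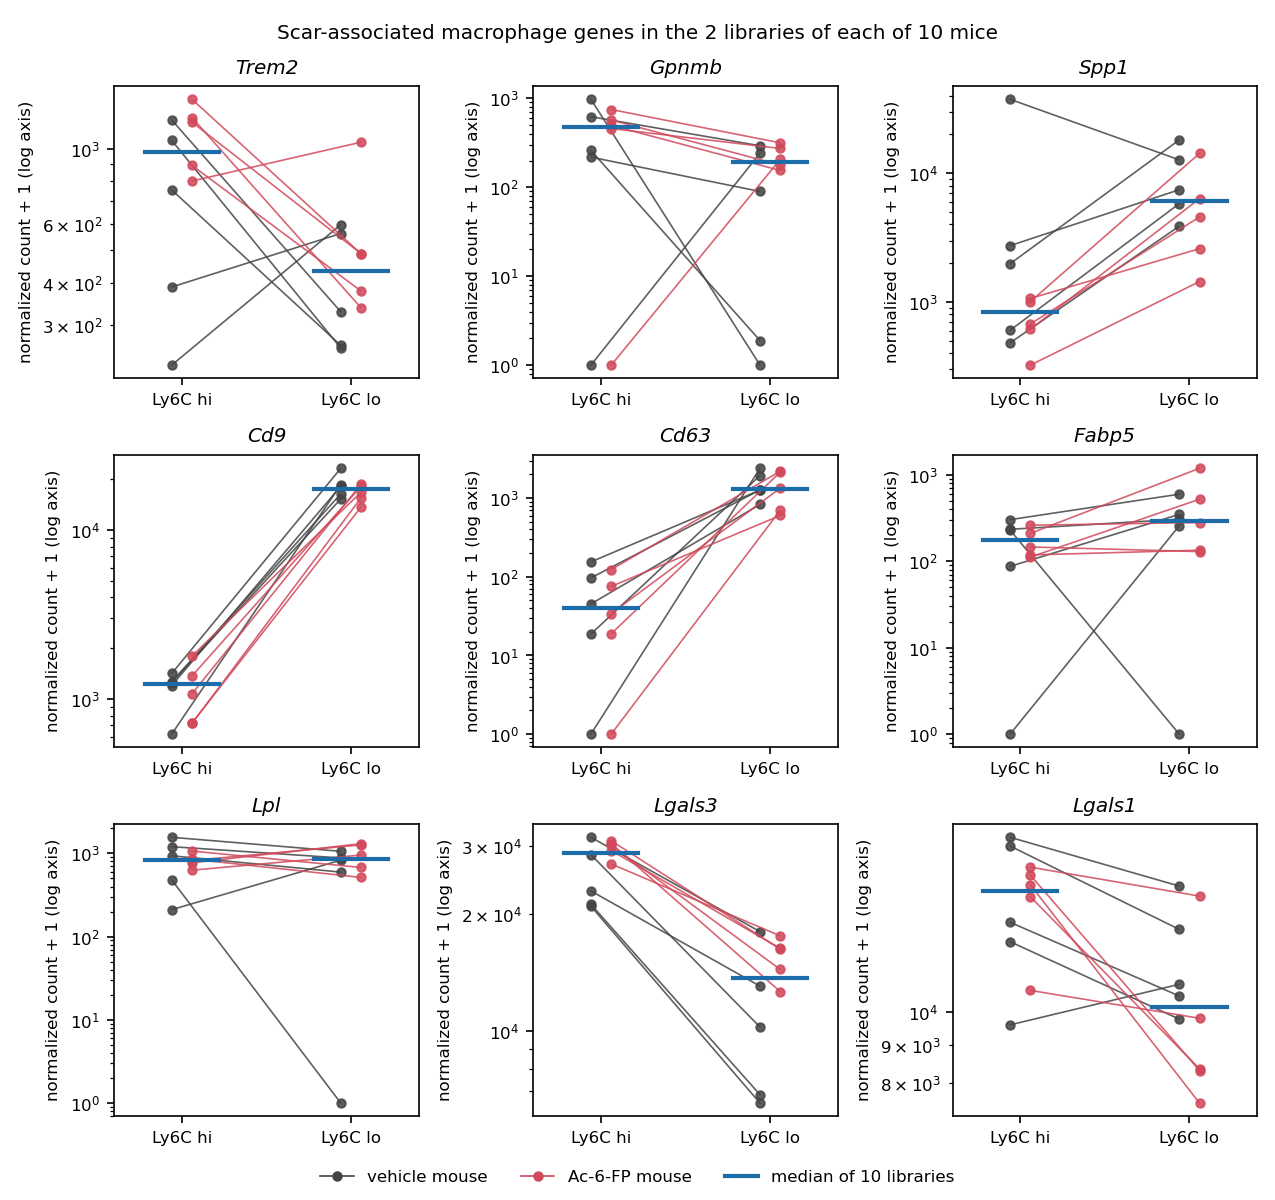
Normalized count + 1 (log axis) of each of the 9 genes in the Ly6C hi and Ly6C lo libraries of the same mouse, joined by a line (grey, 5 vehicle mice; red, 5 Ac-6-FP mice), with the median of 10 libraries in blue. The lines of *Cd9* and *Cd63* all rise from Ly6C hi to Ly6C lo, those of *Lgals3* all fall, and a single line of *Spp1*, that of mouse 15, falls; points at 1 are libraries listed at 0.

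The galectins pointed the other way. *Lgals3* (chr14:47373860-47386167) encodes galectin-3, a lectin that binds β-galactosides and is abundant in macrophages. It ranged from 20987 to 31579 (median 28839) in Ly6C hi and from 6531 to 18052 (median 13745) in Ly6C lo libraries, with no overlap. It was lower in Ly6C lo MoMac in 10 of 10 mice, as were 1.87% of all genes, with a log2 difference of -1.11 (standard error 0.107, 2.16-fold higher in Ly6C hi, limma, adjusted p = 3.0e-05; exact sign-flip permutation p = 0.00195). *Lgals1* (chr15:78926725-78930466), which encodes galectin-1, lay between 9595 and 17250.2 in Ly6C hi and between 7512 and 14809.6 in Ly6C lo libraries, and was the lower in Ly6C lo MoMac in 9 of 10 mice. Its log2 difference of -0.40 (standard error 0.109) just missed the threshold (limma, adjusted p = 0.0555; exact sign-flip permutation p = 0.00781), and passed it in 4 of the 20 alternatives. An unnamed row over the *Lgals1* locus held 0.948 to 1.03 times its values, so those reads cannot be told apart either.

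*Trem2* (chr17:48346395-48354147), the receptor after which such macrophages are often named, did not pass the test. *Trem2* was at 1058, 389, 228, 754 and 1216 in Ly6C hi libraries of vehicle mice and at 1236, 891, 801, 1399.9 and 1198 with Ac-6-FP. In Ly6C lo libraries it was at 256, 560.0, 595, 260.5 and 328 with vehicle and at 337, 378, 1045, 487 and 488 with Ac-6-FP. In 7 of 10 mice it was thus the lower in Ly6C lo MoMac, and the groups overlapped (log2 difference -0.91, standard error 0.378, 95% interval -1.73 to -0.089, limma, adjusted p = 0.238; exact sign-flip permutation p = 0.0527). Without mouse 13, 1 of the 3 mice with the opposite order, the difference was -1.16 and passed the threshold (limma, adjusted p = 0.0456), which it did in 1 of 20 alternatives, with adjusted p-values of up to 0.472 in the others.

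*Gpnmb* (chr6:49036518-49070929) encodes a transmembrane glycoprotein of lysosomes and the cell surface. It was listed at 0 in the Ly6C hi libraries of mice 12 and 18 and in the Ly6C lo library of mouse 13, and at 1 read in the Ly6C lo library of mouse 14. The other Ly6C hi libraries held 218 to 977 and the other Ly6C lo libraries 88.8 to 315. In 8 of 10 mice the Ly6C lo library had the lower value, but both mice of opposite order were those whose Ly6C hi library was at 0, and the interval of the log2 difference was wide (-4.22 to 2.39 around -0.92, limma, adjusted p = 0.772). Without mouse 13 the difference was 0.087 (adjusted p = 0.982).

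The pair of lipid-handling genes did not pass the test either. *Fabp5* (chr3:10012585-10016610) encodes a cytosolic carrier of fatty acids and had medians of 177 in Ly6C hi and 291 in Ly6C lo libraries, with a value of 0 in the Ly6C hi library of mouse 12 and in the Ly6C lo library of mouse 13. It was the higher in Ly6C lo MoMac in 8 of 10 mice (log2 difference 0.83, 95% interval -1.53 to 3.2, limma, adjusted p = 0.702). *Lpl* (chr8:68880553-68907448) encodes lipoprotein lipase, which releases fatty acids from triglyceride-rich lipoproteins. Its median was 836 over the Ly6C hi and 854 over the Ly6C lo libraries, and it was the higher in Ly6C lo MoMac in 4 of 10 mice (log2 difference -0.80, 95% interval -2.59 to 0.991, limma, adjusted p = 0.619). Without mouse 13, whose Ly6C lo library was at 0, the difference of *Lpl* was 0.10 and that of *Fabp5* 1.80, both with adjusted p-values above the threshold (limma, 0.878 and 0.216). RefSeq lists pseudogenes named Cd63-ps, Fabp5l2 and Lgals1-ps1, and how reads shared with such copies were assigned is not given in the sources used here.

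Markers of other cell types moved with the sorted subset, on the side of *Cd9*, *Cd63* and *Spp1*. Those of NK cells (7 of 7 higher in Ly6C lo MoMac by the same test) summed to 42665 to 94980 in Ly6C lo libraries, against 0 to 672 in Ly6C hi libraries, where *Prf1* and *Eomes* were at 0 throughout. Those of basophils and mast cells (6 of 6 higher) summed to 2387 to 41801 against 0 to 138, with *Cpa3*, *Gata2* and *Ms4a2* at 0 in all Ly6C hi libraries. Those of dendritic cells (3 of 7 higher) summed to 6835 to 21829 against 83.8 to 535, and those of eosinophils (5 of 6 tested higher) to 4379 to 25716 against 639 to 1379.5, with *Epx* at 0 in all 20 libraries. Those of patrolling monocytes (3 of 7 higher) ranged from 12974 to 67380 and from 4501 to 22999, so that the subsets overlapped. CD63 is known as a granule membrane protein of basophils and mast cells, and CD9 is carried by many blood cells. What part these cells had in the differences of *Cd9*, *Cd63* and *Spp1* was not tested. Without mouse 13, whose Ly6C lo library had the highest basophil and mast cell sum, the log2 differences were 4.00 for *Cd9*, 5.93 for *Cd63* and 2.37 for *Spp1*. The Ly6C lo libraries of the other mice still held basophil and mast cell sums of 2387 to 12930. Leaving out mouse 13, whose library also had the fewest reads, therefore cannot show what part these cells had.

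The remaining lists had at most 2 markers higher in Ly6C lo MoMac. The Kupffer cell markers *Clec4f*, *Timd4* and *Cdh5* had medians of 0 in both subsets, and *Vsig4*, *Cd5l* and *Marco* had medians of 0 in Ly6C hi and of 53.7, 37.4 and 55.3 in Ly6C lo libraries. The list (1 of 5 tested higher in Ly6C lo) summed to 680 to 6835 in Ly6C lo and to 817 to 2924 in Ly6C hi libraries, mostly from *Id3*, with 680 to 6498 and 817 to 2791. Cholangiocytes are known to make osteopontin, and of their markers *Krt19*, *Sox9* and *Cldn4* were at 0 in all 20 libraries and 0 of 2 tested differed, with sums of 0 to 275 in Ly6C lo and 0 to 358 in Ly6C hi libraries. Of the stellate cell and myofibroblast markers, *Des* was at 0 in all 20 libraries, and the sums ranged from 0 to 306 in Ly6C lo and from 0 to 968 in Ly6C hi libraries (0 of 3 tested differed). Platelet markers, whose cells carry CD9 and CD63, summed to 183 to 1973 in Ly6C lo and 361 to 1752 in Ly6C hi libraries (0 of 7 tested differed). Markers of Ly6C hi monocytes were higher in Ly6C hi MoMac in 7 of 7 cases, on the side of *Lgals3*, with sums of 134706 to 230311 against 25958 to 42914. The sums of T cell markers (1 of 4 tested higher in Ly6C lo) reached 593 in Ly6C lo and 139.7 in Ly6C hi libraries, those of B cells (1 of 5, *Pax5* at 0 in all 20 libraries) 1284 and 743, those of hepatocytes (1 of 6) 3060.0 and 1201, and those of endothelial cells (1 of 5) 4451 and 669. Neutrophil markers (2 of 7 higher in Ly6C lo, 1 higher in Ly6C hi) summed to 820.4 to 24532 in Ly6C lo and 9154 to 15666 in Ly6C hi libraries, and erythroid markers (0 of 3 tested differed) to 169 to 55447 and 219 to 11093. What part any of these cell types, cholangiocytes and platelets included, had in the differences of the members was not tested.

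**Figure D2:**
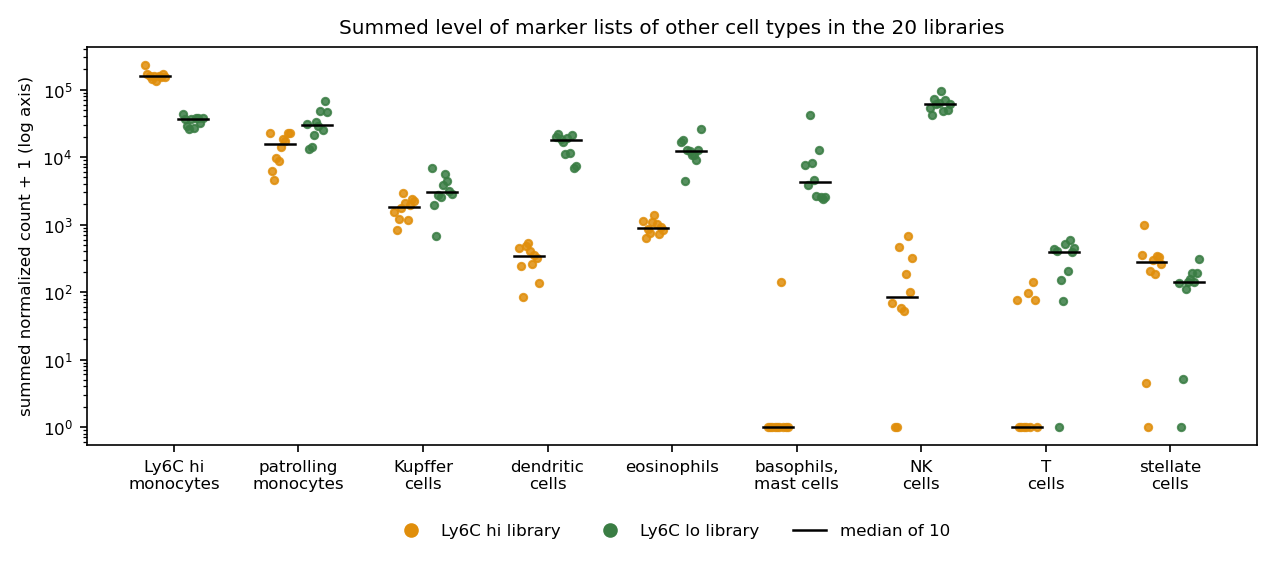
Summed normalized count + 1 (log axis) of the marker genes of 9 cell types in each Ly6C hi (orange) and Ly6C lo (green) library, with the median of 10 as a black line. The NK cell sums of Ly6C lo libraries (42665 to 94980) and their basophil and mast cell sums (2387 to 41801) lie above those of all Ly6C hi libraries, while the stellate cell sums overlap; points at 1 are sums of 0.

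Partners and relatives of the members were then followed between the subsets, and each count below stands beside the 5.19% of all genes that passed the same test. Of 11 other tetraspanins tested, 4 were higher in Ly6C lo MoMac and none was higher in Ly6C hi MoMac, with a median log2 difference over the 11 of 0.621, beside 0.0343 over all genes. *Cd81*, a partner of integrins, ranged from 67.1 to 438 in Ly6C hi and from 1431 to 3916 in Ly6C lo libraries (log2 difference 3.37, standard error 0.252, limma, adjusted p = 3.8e-06). *Tspan13* rose by 2.27 on the log2 scale, *Cd53*, a tetraspanin of leukocytes in general, by 0.62, and *Cd82* by 4.21 (limma, adjusted p = 1.4e-05, 0.00017 and 0.0021). The other 7 did not pass the test, though 5 of the 11 in all passed under DESeq2 and without mouse 13.

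Of the 14 genes of TREM2 and DAP12 signalling, 1 differed (0 to 2 over the alternatives), a count near the 5.19% of all genes. This was *Hcst*, which encodes DAP10, an adaptor of TREM2 and of the NK cell receptor NKG2D, with 276 to 532 in Ly6C hi and 566 to 1793 in Ly6C lo libraries (log2 difference 1.26, standard error 0.267, limma, adjusted p = 0.0143), a call lost under edgeR without mouse 15. *Tyrobp*, which encodes DAP12 itself and is named here after its values were seen, had a log2 difference of -0.051 (95% interval -0.264 to 0.163, limma, adjusted p = 0.808). NK cell markers, on the same side as *Hcst*, summed to 42665 to 94980 in Ly6C lo libraries and to at most 672 in Ly6C hi libraries, and their part in it was not tested, nor was that of the other cell types in any of these lists. The median over the 14 genes was 0.385. Of the 8 osteopontin receptor genes, *Cd44* and 7 integrin chains, 0 passed the test (median 0.358), and 1 did under DESeq2 and without mouse 13. The lowest adjusted p among them was 0.212 (limma). Of the 4 other galectin genes tested, 0 passed (median -0.722), and 1 did with the number of genes above 0 as a covariate.

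Of 5 other fatty acid binding proteins tested, *Fabp4* alone passed, with 44.7 to 239.8 in Ly6C hi and 356 to 1816 in Ly6C lo libraries (log2 difference 3.12, standard error 0.406, limma, adjusted p = 0.00038). Of 10 partners of lipoprotein lipase and lipid uptake genes tested, *Cd36*, a fatty acid and scavenger receptor, alone passed, and 2 genes did under DESeq2 and with that covariate. It ranged from 0 to 301 in Ly6C hi and from 2479 to 5305 in Ly6C lo libraries (log2 difference 5.30, standard error 0.721, limma, adjusted p = 0.00055). Of 8 transcription factors tested, *Nr1h3*, which encodes the oxysterol receptor LXRα, was higher in Ly6C lo MoMac by 3.76, and *Pparg*, the nuclear receptor of fatty acids that drives *Fabp4* and *Cd36*, by 5.85 on the log2 scale (limma, adjusted p = 0.0019 and 0.0033). *Pparg* was at 0 in 5 of 10 Ly6C hi libraries, and its call was lost under edgeR with and without mouse 15. *Tfec*, a MiT/TFE factor, was lower by 3.94 (adjusted p = 0.039), a call lost when any of 7 mice was left out (adjusted p up to 0.113) and under 5 of 10 other alternatives. The median log2 difference was 0.933 for the fatty acid binding proteins, 0.89 for the lipid uptake genes and 0.254 for the factors. Over the alternatives 1 to 3 of the 8 factors passed, with 1 under edgeR.

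Of 30 further genes of scar-associated and lipid-associated macrophages, 4 were higher and 8 lower in Ly6C lo MoMac (9 to 15 in all over the alternatives), with a median of 0.0846, beside 3.44% of all genes higher and 1.76% lower. Higher were *Acp5*, the tartrate-resistant acid phosphatase (log2 difference 3.18, limma, adjusted p = 8.1e-05), *Mmp14*, a membrane collagenase (4.99, adjusted p = 0.0051), *Ctsb*, the lysosomal protease cathepsin B (0.55, adjusted p = 0.0124), and *Itgax*, for which all Ly6C hi libraries were at 0 and no fold is given. The call for *Ctsb* was lost without mouse 15, 16, 17 or 20 (adjusted p up to 0.056), under quantile normalization and under edgeR without mouse 15, and that for *Mmp14* under edgeR without mouse 15. Among the 8 lower genes, the lowest adjusted p-values were those of *S100a6* and *Capg*. *Capg*, which caps actin filaments, was at 21365 to 30437 in Ly6C hi and 6443 to 20377 in Ly6C lo libraries (log2 difference -1.48, standard error 0.151, limma, adjusted p = 5.0e-05). *S100a6*, a calcium-binding protein, was at 9679 to 16870 and 5956 to 11400.0, a log2 difference of -0.81 (limma, adjusted p = 2.9e-05). The subsets did not overlap for *Capg* and overlapped for *S100a6*, and both genes were lower in Ly6C lo MoMac in 10 of 10 mice. Of the 8 calls, that of *Anxa5*, named here after its values were seen, was lost when any 1 of 8 mice was left out (adjusted p up to 0.102), with no filter and under edgeR with and without mouse 15.

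**Figure D3:**
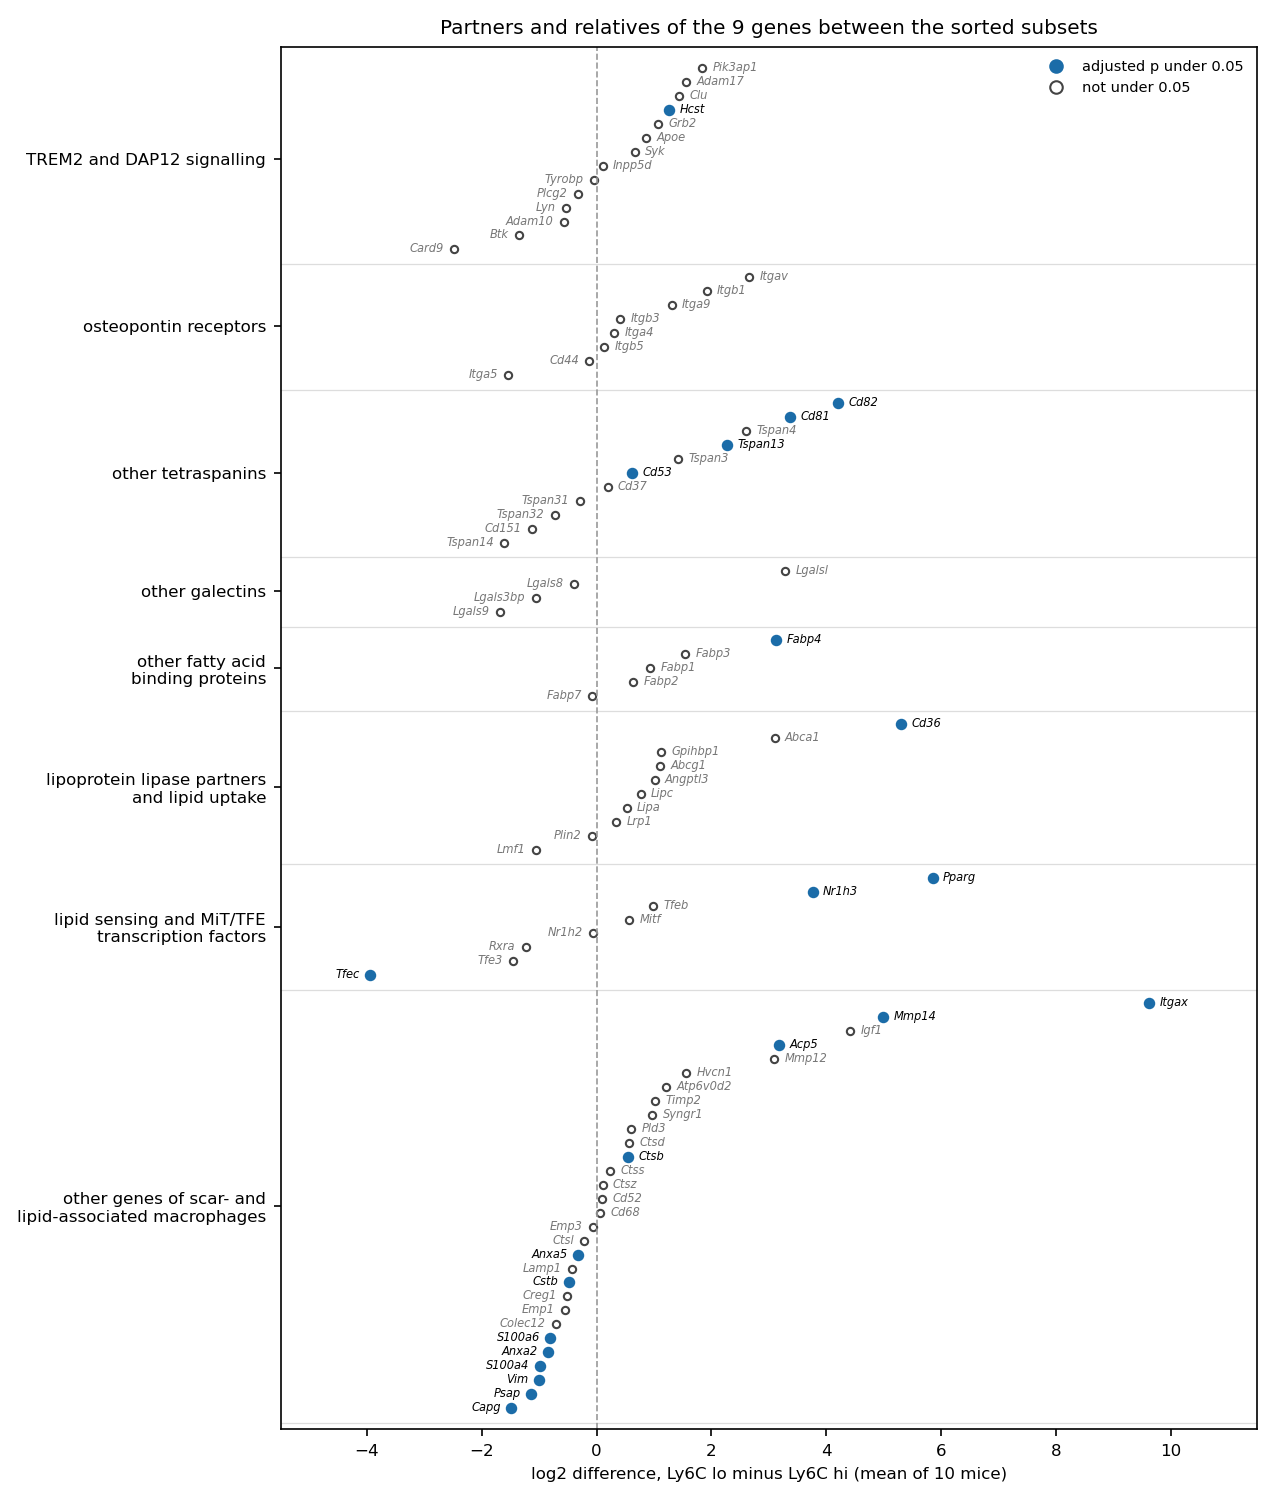
Mean log2 difference, Ly6C lo minus Ly6C hi over 10 mice, of each tested partner or relative of the 9 genes, grouped by list (filled blue, limma adjusted p under 0.05; open, not under 0.05). Among tetraspanins, fatty acid binding proteins and lipid uptake genes all filled points lie above 0, whereas the last list holds 4 above and 8 below; the place of *Itgax* depends on the pseudocount, since all Ly6C hi libraries were at 0.

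The second question was whether keeping MAIT cells inactive changed these genes. No member passed the threshold with Ac-6-FP in either subset. In Ly6C hi MoMac 0 of 9 members did (limma, 5 against 5 mice, lowest adjusted p = 0.614, 0 with an unadjusted p under 0.05), beside 0.0754% of all genes. In Ly6C lo MoMac 0 of 9 did (lowest adjusted p = 0.539, 0 with an unadjusted p under 0.05), beside 0.0522%. On the recovered reads edgeR called 0 of 9 in each subset, and 0 of all genes. DESeq2 called 0 of 9 in Ly6C lo MoMac, where it called 118 of all genes, and 0 of the 8 members for which it gave a p in Ly6C hi MoMac, where it called 158. The member without one was *Spp1*, with a DESeq2 log2 difference of -3.59 (standard error 1.08). *Spp1* in Ly6C hi MoMac was also the single member with an unadjusted p under 0.05 by edgeR. Vehicle and Ac-6-FP mice overlapped for all 9 members in both subsets. They also overlapped for all genes but 1.35% among Ly6C hi and 1.5% among Ly6C lo libraries, so this overlap is not particular to the members. An exact permutation test of 5 against 5 mice cannot give a p below 0.00794, and the lowest over the members was 0.103 among Ly6C hi and 0.111 among Ly6C lo libraries, both for *Lgals3*.

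*Lgals3* had the narrowest margin. With vehicle it was at 31579, 22975, 21224, 20987 and 28487 in Ly6C hi libraries, and with Ac-6-FP at 30119.8, 29192, 26965, 30431 and 30936. In Ly6C lo libraries it was at 18052, 13067, 6864, 6531 and 10252 with vehicle and at 14422, 16344, 17599, 12649.8 and 16263 with Ac-6-FP. In both subsets the Ac-6-FP mice spanned a narrower range that lay within that of the vehicle mice, and mouse 11 held the highest value of all. The log2 difference was 0.26 (95% interval -0.025 to 0.536, limma, adjusted p = 0.614) in Ly6C hi and 0.60 (95% interval -0.019 to 1.21, adjusted p = 0.539) in Ly6C lo MoMac. Ac-6-FP libraries also held more genes above 0, 13411 ± 1604 against 10793 ± 2267 (SD, n = 5 each) in Ly6C hi and 14024 ± 1880.2 against 10952.0 ± 3954 in Ly6C lo MoMac. With that number as a covariate the differences of *Lgals3* were 0.035 and 0.32, under quantile normalization 0.37 and 0.52, and without mouse 11 0.34 and 0.80, none past the threshold (limma, adjusted p of 1 and 0.97, 0.406 and 0.599, and 0.266 and 0.222). Leaving out mouse 13 gave *Lgals3* differences of 0.20 and 0.45, and leaving out mouse 14 gave 0.20 and 0.44. These did not pass the threshold either (limma, adjusted p = 0.759 and 0.668, and 0.737 and 0.661). Over all genes the median difference of Ly6C hi MoMac was 0.351 and that of Ly6C lo MoMac 0.913, or 0.352 when mouse 13 was left out, and quantile normalization brought it to -0.015 and 0.021.

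*Spp1* had lower group means with Ac-6-FP in both subsets, 736 ± 305 against 8654 ± 16136 in Ly6C hi and 5834 ± 5055 against 9580 ± 5788 (SD, n = 5 each) in Ly6C lo MoMac, without passing the test. The log2 difference in Ly6C hi MoMac was -1.74 (95% interval -4.22 to 0.751, limma, adjusted p = 0.667; exact permutation p = 0.159), and without mouse 15 it was -0.72 (adjusted p = 0.697). In Ly6C lo MoMac it was -0.93 (-2.36 to 0.506, adjusted p = 0.604). The values of the other Ly6C hi vehicle mice, 480.5 to 2736, overlapped those of Ac-6-FP mice, 322 to 1064.

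The tetraspanins showed no difference past the test, and the interval was narrower for *Cd9* than for *Cd63*. For *Cd9* the log2 difference with Ac-6-FP was -0.057 (95% interval -0.782 to 0.668) in Ly6C hi and -0.14 (-0.434 to 0.155) in Ly6C lo MoMac, with limma adjusted p-values of 1 and 0.614. For *Cd63* it was -0.21 (-4.15 to 3.72) and -0.24 (-1.26 to 0.773). The intervals of *Lgals1* were -0.353 to 0.457 and -0.739 to 0.122, and those of *Trem2* -0.211 to 1.85 and -0.468 to 1.31. In Ly6C lo MoMac, where the library of mouse 13 was at 0 for *Gpnmb*, *Fabp5* and *Lpl*, their intervals were -0.705 to 6.83, -2.29 to 5.3 and -2.03 to 6.12. In Ly6C hi MoMac they were -5.18 to 5.78, -2.12 to 4.61 and -0.943 to 1.35. Without mouse 13 the differences in Ly6C lo MoMac were 1.89 for *Gpnmb*, 0.11 for *Lpl* and -0.19 for *Fabp5*, none past the threshold (limma, adjusted p = 0.681, 0.933 and 0.949).

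**Figure D4:**
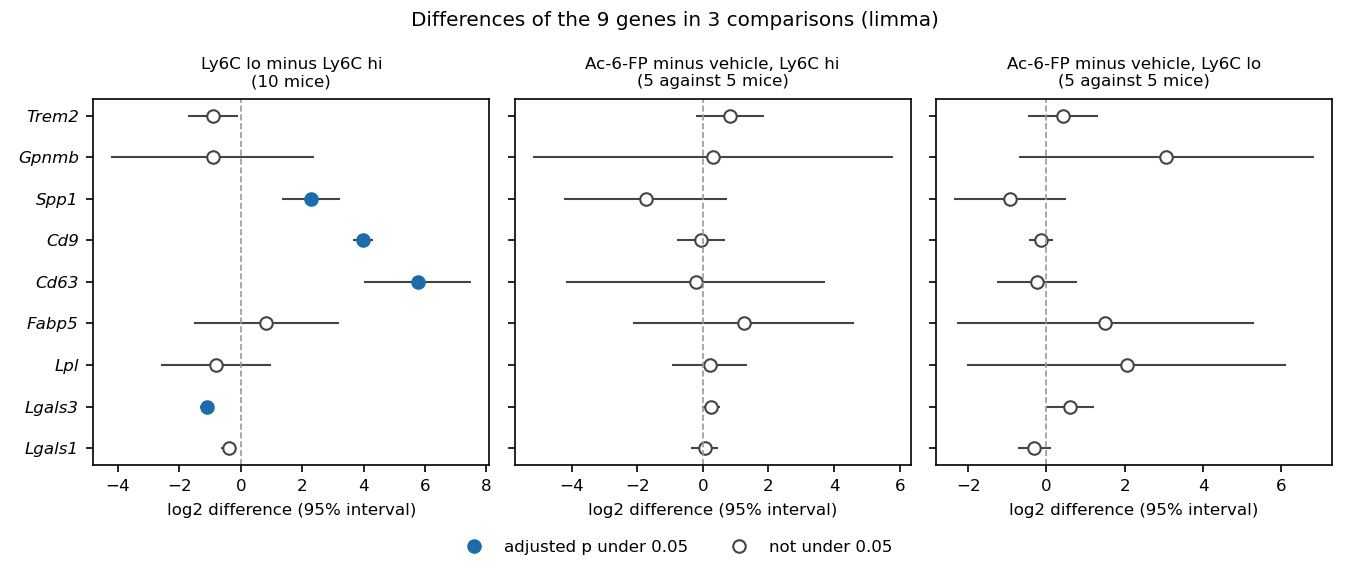
Log2 difference of each of the 9 genes with its 95% interval (limma) between the subsets (left, 10 mice) and between Ac-6-FP and vehicle mice in Ly6C hi (middle) and Ly6C lo MoMac (right, 5 against 5 mice), with calls at an adjusted p under 0.05 filled. In the left panel 4 points are filled, *Cd63* at 5.76, *Cd9* at 3.99, *Spp1* at 2.27 and *Lgals3* at -1.11, and in the other panels none is.

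The change with Ac-6-FP did not differ detectably between the subsets for any member. The test of the difference itself (limma on the within-mouse differences, 5 against 5 mice) called 0 of 9 members, with a lowest adjusted p of 0.83 and 0 with an unadjusted p under 0.05, beside 0% of all genes (840 of them with an unadjusted p under 0.05). DESeq2 and edgeR called 0 of 9 as well, and 162 and 0 of all genes. None of the genes in the 8 lists of partners and relatives passed the threshold with Ac-6-FP in either subset by limma.

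Across the mice of 1 subset the correlations between members went both ways, which in 10 libraries is a description. Over the 36 pairs of members the median Pearson correlation of log2 values was 0.041 in the 10 Ly6C hi libraries (range -0.589 to 0.82) and 0.042 in the 10 Ly6C lo libraries (-0.594 to 0.923). *Gpnmb* with *Fabp5* (0.625 and 0.677), *Cd63* with *Fabp5* (0.603 and 0.533) and *Lpl* with *Lgals3* (0.764 and 0.575) were the 3 pairs above 0.5 in both subsets. For *Cd63* with *Fabp5*, both at 0 in the Ly6C hi library of mouse 12, the Spearman correlation in Ly6C hi libraries was 0.0122. *Gpnmb* and *Fabp5* were both at 0 in that library and in the Ly6C lo library of mouse 13, and their Spearman correlations were 0.535 and 0.442. *Lpl* was also at 0 in the Ly6C lo library of mouse 13, and its Spearman correlations with *Lgals3* were 0.709 and 0.442. The points share the depth of the library and its number of genes above 0, which correlated with the mean of the members at 0.623 in Ly6C hi and 0.346 in Ly6C lo libraries. By the lower of the correlations in the 2 subsets with that mean, the most alike of 6952 other genes were *Birc2* (0.849), *Ptgr1* (0.846), *Tomt* (0.827), *Plekhf2* (0.82) and *Tpi1* (0.817), each over 10 libraries of a subset.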

How the data were processed

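RNA-seq was performed on Ly6C hi and Ly6C lo MoMac of 10 mice. Per the labels and the methods of the study, the authors made libraries with a low-input kit, aligned reads with STAR (2.4.0) to mm10, counted them on the constitutive regions of FAST DB genes and divided the counts by DESeq2 size factors. The deposited values are this signal, normalized counts with 2 decimals, and whether strand was used is not stated. From the smallest step of each library, 100% of values came out as whole reads within 0.006, and these reads served for edgeR (4.0.16) and DESeq2 (1.42.0) as alternatives.

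The main test was limma (3.58.1, R 4.3.3) on log2(value + 1), so a fold change is on that scale: it understates the change of genes that are low throughout, and single libraries at 0 can enlarge it. It ran over the 17248 genes with a mean of at least 10 in 1 of the 4 groups, with a variance trend and Benjamini-Hochberg adjustment (threshold 0.05). Subsets were compared within mice and treatments between mice. Libraries with the same number came from the same animal. The residuals of such pairs correlated at 0.25 in mouse 11 and at 0.00334 to 0.0833 in the others. Exact permutation tests were two-sided (Python 3.11.15, scipy 1.17.1). The fits were tested on simulated data, which held no effect shared by the libraries of a mouse and no added zeros. No result here rests on that simulation. Values rest on 5693049 to 18682437 reads per library.

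The 9 genes, the lists and the markers were chosen with earlier results of these data known. Text names all 9 genes, up to 4 called genes of the smallest adjusted p per list, counts of up to 5 in full, marker sums with the markers at 0, and the 5 genes most like the members. Alternatives were 2 other pseudocounts (0.1 and 10), no filter and a filter at 100, quantile normalization, the number of genes above 0 as a covariate, edgeR, DESeq2, each mouse left out, no replicate block and, chosen after seeing the data, edgeR without mouse 15.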

Additional observations from a re-analysis of the deposited data

Results flagged for a closer look

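In each gene, groups of 5 libraries and the 10 within-mouse differences were searched for a value far from the others (Dixon's 95% critical value). Of 45 such groups 7 held one, where chance alone gives about 1 in 20 if values are normally distributed. The groups of 5 used normalized counts without a log scale, and the genes share libraries, so that rate need not hold here.

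For *Spp1*, the Ly6C hi library of vehicle mouse 15 stood at 37469 normalized counts, with 2736 as the nearest of its group, and the within-mouse log2 difference of mouse 15 was -1.56, with 1.28 as the nearest. For *Cd9*, the Ly6C hi library of vehicle mouse 12 stood low, at 619.8, with 1203 as the nearest.

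In mouse 13, whose Ly6C lo library had the fewest reads and genes, the within-mouse log2 difference was -7.84 for *Fabp5* (nearest -0.18) and -8.91 for *Lpl* (nearest -0.73). Both genes were listed at 0 in that library.

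In Ac-6-FP mouse 18, *Trem2* stood high in the Ly6C lo library, at 1045 with 488 as the nearest, and *Lgals1* stood low in the Ly6C hi library, at 10686 with 14321 as the nearest.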

How the results depend on the processing

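The higher level of *Cd9*, *Cd63* and *Spp1* and the lower level of *Lgals3* in Ly6C lo MoMac passed the threshold in 20 of 20 alternatives, and 4 to 5 members did so in each (*Lgals1* or *Trem2* being the fifth). With Ac-6-FP, and for the difference of that change between subsets, 0 members passed in any alternative that gave a p. DESeq2 gave none for *Spp1* in Ly6C hi MoMac (log2 difference -3.59). Without the replicate block, that is without pairing by mouse, 4 members passed and the log2 differences were 3.99 (*Cd9*), 5.76 (*Cd63*), 2.27 (*Spp1*) and -1.11 (*Lgals3*). Of 693 values of members under alternatives, 636 kept direction and side of the threshold, 5 passed it newly and 52 turned direction, and 0 of these 52 had passed it. The number of libraries limits the treatment comparison, and zeros limit *Gpnmb*, *Fabp5*, *Lpl* and *Cd63*. The cause of the turned directions was not tested.

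In Ly6C hi MoMac, differences with Ac-6-FP turned with genes above 0 as a covariate (*Cd63* 0.18, *Fabp5* -0.26, *Gpnmb* -3.01, *Lpl* -0.51), under edgeR (*Fabp5* -0.03, *Lpl* -0.09), under DESeq2 (*Lgals1* -0.00568, *Fabp5* -0.05, *Lpl* -0.11) and under edgeR without mouse 15 (*Lgals1* -0.00178, *Gpnmb* -0.05). In Ly6C lo MoMac the covariate turned *Fabp5* (-0.25) and *Lpl* (-0.20). The difference of the Ac-6-FP change between subsets turned under quantile normalization (*Cd63* 0.56, *Fabp5* -0.11), the covariate (*Fabp5* -0.41), edgeR (*Cd63* 0.37, *Fabp5* -0.24), DESeq2 (*Cd63* 0.43, *Fabp5* -0.17) and edgeR without mouse 15 (*Fabp5* -0.59, *Spp1* -0.10).

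Leaving out 1 mouse at a time gave, between the subsets, -1.90 to 0.09 for *Gpnmb* and -1.11 to 0.10 for *Lpl*. For the Ac-6-FP difference of Ly6C hi MoMac it gave -1.39 to 0.91 for *Cd63*, -0.07 to 0.15 for *Lgals1*, -0.27 to 1.78 for *Fabp5*, -1.45 to 2.12 for *Gpnmb*, -0.27 to 0.09 for *Cd9* and -0.23 to 0.49 for *Lpl*. In Ly6C lo MoMac it gave -0.45 to 0.01 for *Cd63* and -0.19 to 2.11 for *Fabp5*. For the difference of the Ac-6-FP change between subsets it gave -0.95 to 1.34 for *Cd63*, -0.77 to 0.13 for *Trem2*, -1.88 to 2.08 for *Fabp5*, -0.05 to 1.16 for *Spp1* and -0.20 to 0.14 for *Cd9*.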

Other observations

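The Ly6C hi library of mouse 15 was searched, after its *Spp1* value was seen, for genes of high level (at least 1000 normalized counts) that reached 4 times the highest of the other 9 Ly6C hi libraries. Beside *Spp1* and the unnamed row over its locus, the genes found were *Arg1* and *Them4*, which encodes an acyl-CoA thioesterase. *Arg1* stood at 2830 against a highest of 655 in the other Ly6C hi libraries, and at 4634 in the Ly6C lo library of mouse 15. *Them4* stood at 1080 against a highest of 259.8 in the other Ly6C hi libraries, and at 265 in the Ly6C lo library of the same mouse. The part of this library in any group difference of *Arg1* or *Them4* was not tested.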
